A study of Zea mays with 7 samples.

Results

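MIR396c, MIR164a, MIR156e, MIR156f, MIR171h and MIR398a are 6 of the 26 microRNA genes, and of the 5872 genes of all kinds, that the RefSeq annotation of the B73 genome (version 5, Zm-B73-REFERENCE-NAM-5.0) places on chromosome 2 of maize. They were chosen by a measured value, namely 20 or more small RNA alignments within the gene in at least 1 library, so that their presence in the libraries is given by the choice and is not a result. MIR160f also reached this number, with 75 alignments in its deepest library, and was not on the list. Just inside the limit lay MIR398a and MIR171h, with 38 and 49 alignments in their deepest library, and just outside it MIR171c and MIR395a with 19 each and MIR169c with 18. In each of the 6 genes the deepest library was the one labelled ago104, which has the most alignments of all. In the other 6 libraries alone, MIR164a and MIR396c were the members that reached 20.

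In the study, small RNAs were sequenced from immunoprecipitates of the ARGONAUTE protein AGO104, made from ears of plants with normal or reduced production of small interfering RNAs. The study's text calls these ears immature, whereas a figure legend calls them mature. The mm plants are homozygous for mop1-1 (labelled mop1-1/mop1-1) with a B-I-like epiallele of b1, the Mm plants are heterozygous (labelled Mop1-1/mop1-1) with the B' epiallele, and B73 is an inbred line with a neutral b allele. These groups have 2 biological replicates each, and 1 further library is labelled ago104 (its replicate 2), with no allele or zygosity in its label. The antibody field of every label reads AGO104-AGO105, and the study's text names AGO104 alone. As the B73 libraries come from another line than the mm and Mm libraries, the line and the mop1 allele cannot be told apart in comparisons with B73. Small RNA coverage does not measure the mRNA of mop1 or of marker genes, so that neither the genotypes nor the tissue was checked in this way.

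A plant microRNA is cut from the hairpin of a single transcript, usually as a duplex of a guide strand from one arm and a passenger strand from the other, and guides an ARGONAUTE protein to matching mRNAs. In A. thaliana most microRNAs are loaded into AGO1, and their biogenesis does not need the RNA-dependent RNA polymerase that MOP1 is the maize homolog of. Small interfering RNAs of the RNA-directed DNA methylation pathway do need it, and are loaded into the AGO4 group, to which AGO104 belongs. The families of the 6 genes are old and shared by many plants. As known mainly from A. thaliana, miR396 represses GROWTH-REGULATING FACTOR genes, miR164 represses NAC genes of organ boundaries, miR156 represses SPL genes and so keeps the plant juvenile, miR171 represses HAIRY MERISTEM genes of the GRAS family, and miR398 represses genes of copper/zinc superoxide dismutases.

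The libraries hold depth of coverage along chromosome 2 and no reads. An alignment was counted to begin wherever the depth stepped up and to end wherever it stepped down. Depth came to 936656 and 1742053 alignments on the chromosome for mm, to 1555520 and 1417599 for Mm, to 20104173 for ago104, and to 2781590 and 4431623 for B73. Levels are given as alignments per 1000000 alignments on the chromosome, with exact Poisson intervals at 95% that cover counting error only. Genotypes were compared on summed coverage, scaled to 1000000 units per library. A read that matches several genes of a family may be placed at several of them, so that a value at one gene may hold reads of its copies. The study's genome alignment reports up to 2 places per read, and its alignment to the b1 repeats and their flanks has another limit. Which of them the deposited coverage comes from is not stated. Beyond b1, tRNA genes fitted the annotation best at a shift of 7855 bp. The coverage is thus not placed on the unchanged B73 chromosome, and the limit of 2 places per read may not apply to it. Whether reads of family copies on other chromosomes lie at these genes was not tested. The annotation lists 8 genes of the MIR396 family over the whole genome, 8 of MIR164, 11 of MIR156, 14 of MIR171 and 2 of MIR398. How many of them share a mature sequence was not analysed here.

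Coverage fell on short, sharply bounded stretches of the hairpin in MIR396c and MIR164a. MIR396c (chromosome 2, 2228628 to 2228701 in version 5, 74 bases) lies within the bounds of the protein-coding gene LOC103645767; whether this is an exon or an intron was not analysed here. Its alignments began at 1 place, the stretch from base 44 to base 59 of the gene, counted from the end with the lower coordinate. Within 5 bases of that start lay 162 of the 164 alignments (98.8%) of the mm, Mm and B73 libraries and 632 of 637 (99.2%) in the ago104 library. The next most used place in the ago104 library, at the first base, held 2 alignments there and none in the other libraries. Positions within genes may be off by a few bases. The coverage of tRNA genes fitted the annotation best at a shift of -2 bp before the b1 region and 7855 bp beyond it. Only the shift of 7855 bp was applied, so that positions in MIR396c and MIR171h, which lie before b1, are unshifted.

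MIR164a (223359910 to 223360061, 152 bases) lies outside other annotated genes, 825 bp from the coding gene LOC103647937. Its main stretch ran from base 115 to base 130 and held 245 of 257 alignments (95.3%) in the mm, Mm and B73 libraries and 716 of 723 (99.03%) in the ago104 library. A second stretch began near base 16, and held 9 alignments over 3 of these libraries and 4 in the ago104 library. The main stretch ends 22 bases before the far end of the gene and the second begins 15 bases after the near end, so that they lie toward opposite ends of the hairpin. Coverage in both genes stood well above that of their surroundings. Per 100 bases, MIR164a held 36.2 alignments in mm replicate 1 and 32.2 in replicate 2, and the 1000 bases on each side held 0.05 and 0.7. In the B73 libraries, where this ratio was lowest, it was 20.7 and 14.2 for MIR164a and 5.59 and 15.1 for MIR396c.

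Both miR156 genes showed a pair of stretches. In MIR156e (33057365 to 33057490, 126 bases, within the bounds of the protein-coding gene LOC109029535) the ago104 library held 63 alignments from about base 24 and 32 from about base 91, together nearly all of its 99. The mm, Mm and B73 libraries each held at least 1 alignment at both places, 13 at the first and 8 at the second of 28 in all. In MIR156f (185142785 to 185142951, 167 bases, within the lncRNA LOC115029010) the ago104 library held 53 from base 128 and 32 from base 17, of 96. The mm, Mm and B73 libraries held 8 and 11 there, of 23. Unlike MIR164a, where the second stretch held 0.553% of alignments in the ago104 library, it held 32.3% in MIR156e and 33.3% in MIR156f. Neither gene stood above its surroundings in every library. Density in the gene was set over that in the 1000 bases on each side. Over the mm, Mm and B73 libraries this ratio was 0.733 to 4.41 in MIR156e and 0.285 to 3.27 in MIR156f. MIR156f was covered less densely than its flanks in both B73 libraries (0.840 and 0.285), and MIR156e in B73 replicate 2 (0.733).

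MIR171h (18233872 to 18233995, 124 bases, within the lncRNA LOC109943969) had 1 main stretch, from base 82 to base 99, with 45 of 49 alignments in the ago104 library. Of this stretch, mm replicate 1 held 1 alignment and replicate 2 held 2, each Mm library held 6, and neither B73 library held any. With 0 alignments, up to 1.08 and 0.677 per 1000000 remain possible in the B73 libraries (3 counts of the total). In B73, the flanks of MIR171h were covered more densely than the gene: 2.8 and 3.6 alignments per 100 bases, with 0.806 and 1.61 in the gene.

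In MIR398a (174005186 to 174005325, 140 bases, within the lncRNA LOC118476385) no stretch held most of the alignments. In the ago104 library 18 of 38 began near base 123 and 10 near base 6, toward opposite ends of the gene. The mm, Mm and B73 libraries held 6 alignments in all, 3 of them at the first of these places and 0 at the second. A denser place lay outside the annotated gene, 35 bases after its far end. In the 60 bases after the gene the ago104 library held 40 alignments, of which 31 began there and were 17 bases long. In the same 60 bases there were 11 and 1 alignments in mm, 3 and 0 in Mm, and 1 and 2 in B73.

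**Figure D1:**
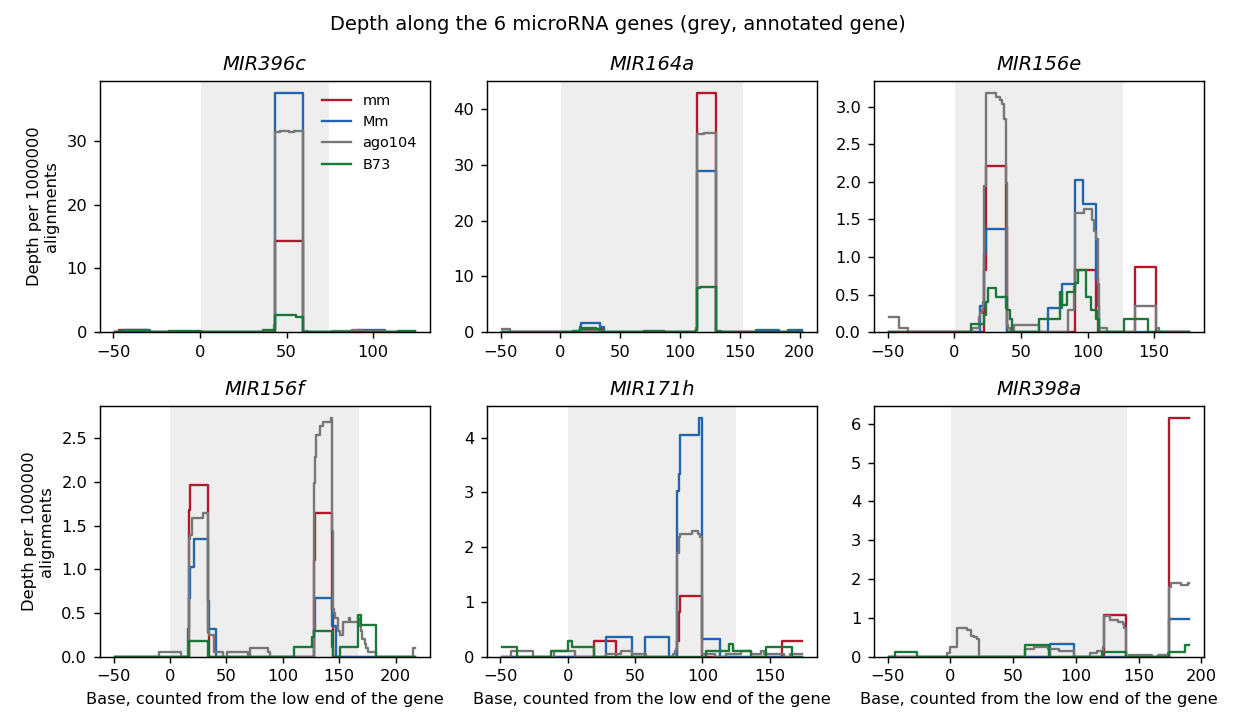
Depth per 1000000 alignments (y axis) along each of the 6 genes and 50 bases on both sides (x axis, bases counted from the end with the lower coordinate), as the mean of 2 libraries for mm, Mm and B73 and as 1 library for ago104. Grey marks the annotated gene. MIR396c and MIR164a each show 1 block of 16 bases, MIR156e and MIR156f show 2 blocks, MIR171h shows 1 block that is missing in B73, and the tallest block at MIR398a lies beyond the gene.

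Alignments in MIR396c and MIR164a were mostly 16 bases long, more often than on the chromosome as a whole. Alignments of 16 bases made up 98.7% and 96.7% of those in both genes together in the mm libraries (95% exact intervals 92.9 to 100.0 and 88.5 to 99.6), 94.4% and 100% in the Mm libraries, 96.7% in the ago104 library, and 84.6% and 88.1% in the B73 libraries (69.5 to 94.1 and 74.4 to 96.0). On the whole chromosome, 16 bases made up 23.5% and 23.7% of alignments in mm, 12.5% and 14.2% in Mm, 14.9% in the ago104 library and 21.6% and 18.99% in B73. All 7 intervals for these genes lay above the share on the chromosome. They cover counting error only, and most of these alignments share the main stretch of their gene. The same length led in MIR160f, which is not a member, with 85.7% and 100% of its alignments in mm, 69.2% and 81.8% in Mm, 89.3% in the ago104 library, and 100% in both B73 libraries. On the chromosome, 19 bases made up 18.2% and 17.9% in mm, 37.3% and 35.2% in Mm, 29.6% in the ago104 library, and 30.0% and 27.0% in B73. How an aligned length relates to the length of a read is not given in the sources used here.

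The other 4 genes were less uniform. In the ago104 library, where they held 282 alignments, 28.01% of these were 16 bases long (22.9 to 33.6). MIR156e held 41 alignments of 16 bases, 30 of 17 and 22 of 18 there. MIR156f held 32 of 16 and 46 of 17 bases. MIR171h stood out with 36 of 49 at 18 bases, and MIR398a with 26 of 38 at 17 bases. The main stretch of MIR171h was thus 2 bases longer than those of MIR396c and MIR164a. In the mm, Mm and B73 libraries the 4 genes held 9 to 17 alignments per library, too few to set their lengths against each other.

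**Figure D2:**
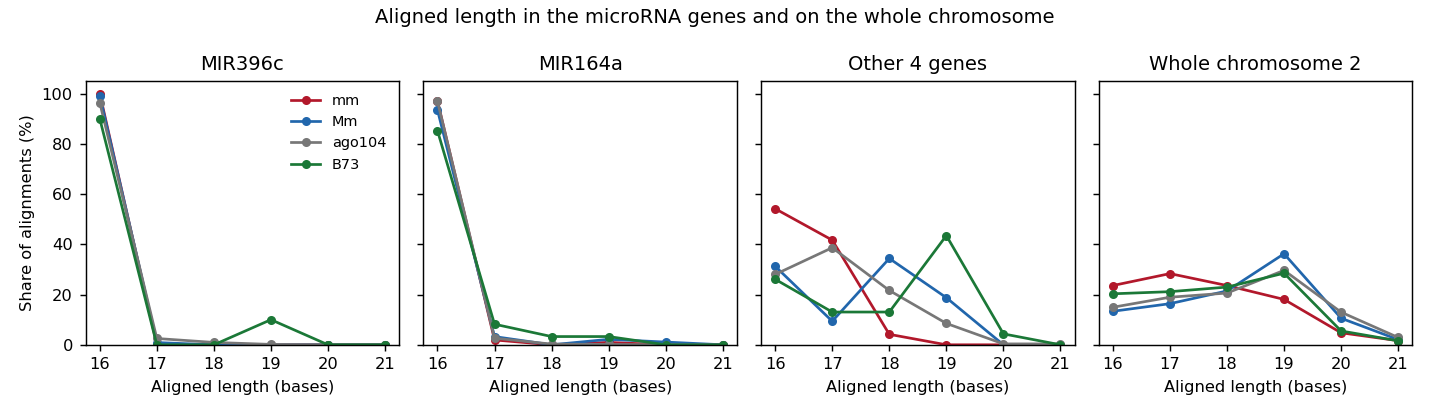
Share of alignments (y axis, percent) by aligned length (x axis, bases) in MIR396c, in MIR164a, in the other 4 genes together and on the whole of chromosome 2, with libraries of a group pooled for the genes and averaged for the chromosome. In MIR396c and MIR164a 16 bases is the commonest length in every group, whereas on the chromosome it makes up 12.5% to 23.7% of a library.

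Between mm and Mm, the comparison of homozygous with heterozygous mop1-1 plants, none of the 5 genes tested passed the threshold. The comparison was fitted with limma on log2 of scaled coverage plus 1, with all 3 genotypes, and Benjamini-Hochberg adjustment over the 5564 genes of the chromosome with a mean of at least 1 scaled unit. MIR398a did not reach that mean, so 5 of 6 members passed this filter. In this comparison 15.3% of all genes tested were called at an adjusted p under 0.05, namely 1.47% with higher and 13.8% with lower coverage in mm. The median over all genes was -0.34 on the log2 scale. Of the 5 members, 2 had an unadjusted p under 0.05 in limma, as did 1830 of the 5564 genes tested. The members' median log2 change was -0.21, over a range of -1.47 to 0.58. A member can reach the mean through the genotype in which it is high, which holds for MIR171h, so that these counts and medians describe the list and support nothing.

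MIR396c held 21 and 11 alignments in mm, and 64 and 48 in Mm. Per 1000000 alignments, mm replicate 1 stood at 22.4 (13.9 to 34.3) and replicate 2 at 6.31 (3.15 to 11.3), whereas Mm replicate 1 stood at 41.1 (31.7 to 52.5) and replicate 2 at 33.9 (24.97 to 44.9). Both mm libraries lay below both Mm libraries, as in 43.9% of all genes tested, but the mm libraries also differed from each other beyond their counting error. The log2 change was -1.47 (standard error 0.54, limma, adjusted p = 0.106). The call depended on the libraries in the fit: the adjusted p was 0.0347 without mm replicate 1, 0.00816 and 0.0109 without B73 replicate 1 or 2, which share in the estimate of the spread, and 0.00306 with only mm and Mm fitted. Over all 18 alternatives the log2 change ranged from -2.31, without mm replicate 1, to -0.64, without mm replicate 2.

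MIR164a held 55 and 49 alignments in mm, and 62 and 30 in Mm, or 58.7 and 28.1 per 1000000 alignments in mm, and 39.9 and 21.2 in Mm. The ranges overlapped, and the log2 change was 0.53 (standard error 0.49, adjusted p = 0.471). MIR164a thus differed between mm and Mm by less than the spread between replicates. Whether the changes of MIR164a and MIR396c differ from each other was not tested.

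MIR171h held 1 and 3 alignments in mm, and 7 and 8 in Mm, or 1.07 and 1.72 per 1000000 in mm, and 4.50 and 5.64 in Mm. The groups did not overlap (43.9% of all genes tested had both mm libraries below both Mm libraries), and the pooled ratio of mm over Mm was 0.296 (95% exact interval 0.0715 to 0.929). Intervals of pooled ratios cover counting error only and leave out the spread between libraries. The log2 change was -1.33 (standard error 0.42, adjusted p = 0.0731), which did not pass, and the adjusted p was 0.0388 to 0.0460 under 3 alternatives, of which 1 had no filter. MIR171h entered the fit only through its level in Mm, so that its values against Mm are a description and support nothing. MIR156e held 3 and 5 alignments in mm, and 4 and 6 in Mm, a change of -0.21 in log2 (standard error 0.47) at an adjusted p of 0.776, and its sign turned under 2 other scalings. MIR156f held 3 and 7 in mm, and 3 and 3 in Mm, a change of 0.58 in log2 (standard error 0.40) at an adjusted p of 0.340. Both mm libraries of MIR156f lay above both Mm libraries in scaled coverage, as in 21.7% of all genes tested, and MIR156e overlapped. Neither gene passed the threshold, and the pooled ratios of mm over Mm were 0.888 (0.305 to 2.50) for MIR156e and 1.85 (0.609 to 6.19) for MIR156f. MIR398a held 2 and 0 alignments in mm, and 1 and 0 in Mm.

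**Figure D3:**
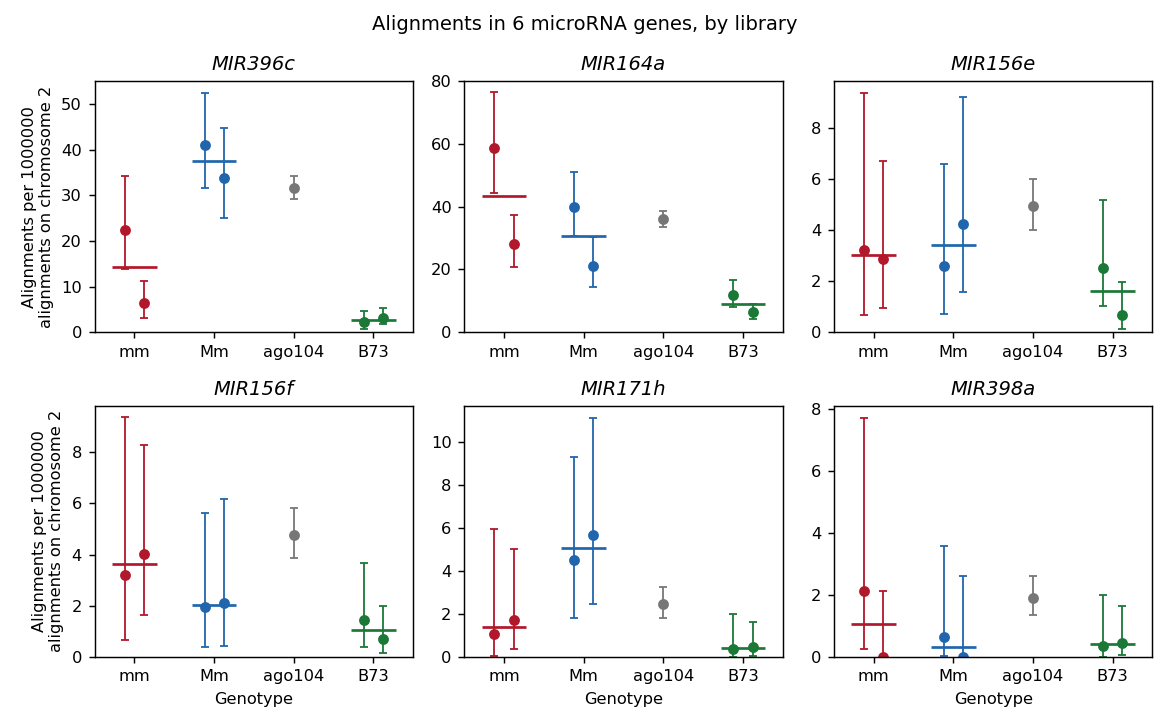
Alignments per 1000000 alignments on chromosome 2 (y axis) in each library of mm, Mm, ago104 and B73 (x axis). Points are libraries, error bars are exact 95% Poisson intervals for counting error and horizontal lines are means of 2 libraries. In MIR396c the mm libraries stand at 22.4 and 6.31, below Mm at 41.1 and 33.9 and above B73 at 2.16 and 3.16.

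Against B73, coverage was higher in both mm libraries for all 5 genes tested, and 1 gene passed the threshold. As MIR171h entered the fit through its level in Mm, the count of 5 is a description and supports nothing. Of all genes tested, 20.6% had both mm libraries above both B73 libraries, and 14.8% were called, 4.58% higher and 10.2% lower in mm. MIR164a, of the family that represses NAC genes, rose in mm: it held 55 and 49 alignments there, and 33 and 28 in the deeper B73 libraries. Per 1000000 alignments, mm replicate 1 stood at 58.7 (44.2 to 76.4) and replicate 2 at 28.1 (20.8 to 37.2), whereas B73 replicate 1 stood at 11.9 (8.17 to 16.7) and replicate 2 at 6.32 (4.20 to 9.13). The log2 change was 2.11 (standard error 0.49, adjusted p = 0.0307). The call was narrow: the adjusted p was 0.161 and 0.0641 without mm replicate 1 or 2, 0.0648 and 0.0652 without Mm replicate 1 or 2, and 0.0650 with only mm and B73 in the fit.

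The other 4 did not pass in mm against B73. MIR396c held 2.16 (0.792 to 4.69) and 3.16 (1.73 to 5.30) alignments per 1000000 in the B73 libraries, from 6 and 14 alignments, below both mm libraries, a change of 1.83 in log2 (standard error 0.54) at an adjusted p of 0.0618. It passed without mm replicate 2 (adjusted p = 0.0399) and without B73 replicate 1 or 2 (0.0300 and 0.00516), and also with scaling to the coverage outside the top 1% of 10 kb bins (0.0446). The estimate was 1.37 in log2 for MIR156f (standard error 0.40, adjusted p = 0.0613), 0.76 for MIR171h (standard error 0.42, adjusted p = 0.261) and 0.65 for MIR156e (standard error 0.47, adjusted p = 0.389). MIR156f passed under 4 alternatives, with adjusted p of 0.0314 to 0.0489. The alignments in B73 were 4 and 3 in MIR156f, 1 and 2 in MIR171h and 7 and 3 in MIR156e. Pooled ratios of mm over B73 were 2.15 (0.739 to 6.06) for MIR156e and 3.59 (0.607 to 24.5) for MIR171h. They were 3.85 (1.32 to 11.9) for MIR156f and 4.31 (2.39 to 7.95) for MIR396c, with intervals for counting error only. Some of the B73 alignments lay outside the main stretches. Of the 4 and 3 in MIR156f, 2 and 1 began at them. MIR398a held 1 and 2 alignments in B73, and 2 and 0 in mm.

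Between Mm and B73, which the study describes as plants with normal production of small interfering RNAs, MIR396c showed the largest change of the 5 members and passed the threshold. Of all genes tested 1.56% were called, 0.557% higher and 1.01% lower in Mm, and 38.4% had both Mm libraries above both B73 libraries, as did all 5 members. Of these 5, MIR171h entered the fit through its level in Mm, so that the count is a description and supports nothing. Per 1000000 alignments MIR396c held 41.1 and 33.9 in Mm, and 2.16 and 3.16 in B73, a pooled ratio of 13.6 (8.39 to 23.1, counting error only). The log2 change was 3.30 (standard error 0.54, adjusted p = 0.0369), against a median of 0.23 over all genes. The direction held under all 18 alternatives, and the call was lost under 10 of them. The adjusted p was 0.411 and 0.271 without Mm replicate 1 or 2, 0.0864 and 0.0800 without mm replicate 1 or 2, and between 0.0532 and 0.0902 in the other 6.

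For MIR171h, the Mm libraries held 7 and 8 alignments, and the B73 libraries 1 and 2, none of them at the main stretch. The log2 change was 2.09 (standard error 0.42, adjusted p = 0.0706), which did not pass and, as MIR171h entered the fit through its level in Mm, is a description. MIR164a held 39.9 and 21.2 alignments per 1000000 in Mm, and 11.9 and 6.32 in B73, a change of 1.58 in log2 (standard error 0.49) at an adjusted p of 0.186. It passed without B73 replicate 1 (adjusted p = 0.00309). MIR156e and MIR156f had log2 changes of 0.87 (standard error 0.47, adjusted p = 0.365) and 0.80 (standard error 0.40, adjusted p = 0.330). The comparisons of mm and of Mm with B73 share the B73 libraries, so that the 2 sets of values are not independent.

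**Figure D4:**
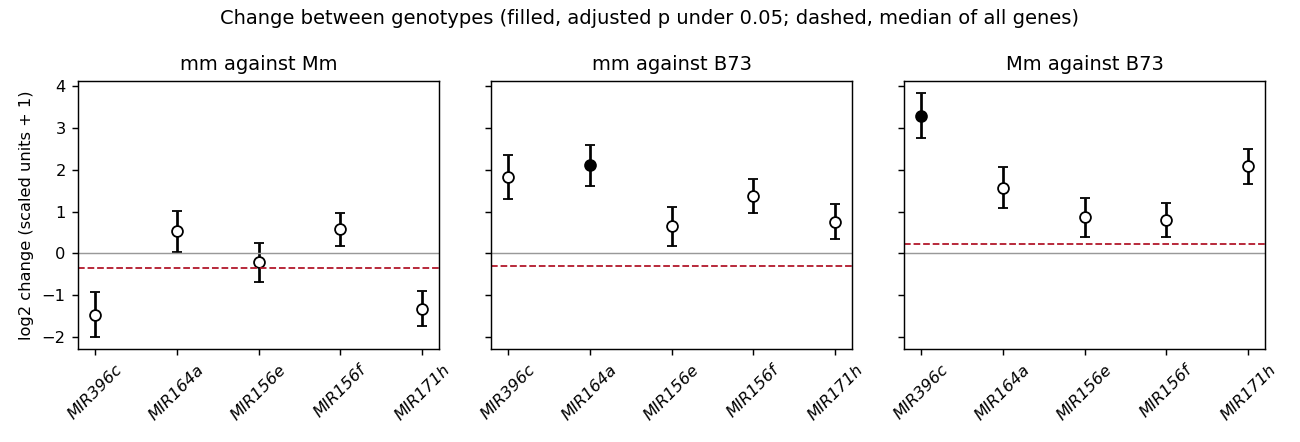
Change in log2 of scaled coverage plus 1 (y axis) of the 5 genes tested (x axis) in mm against Mm, mm against B73 and Mm against B73. Points are limma estimates from 2 libraries per group, error bars are standard errors, filled points have an adjusted p under 0.05 over 5564 genes, and the dashed line is the median of all genes. The filled points are MIR164a in mm against B73 (2.11) and MIR396c in Mm against B73 (3.30).

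Summed over the 6 genes, coverage came to 82.7 and 39.3 scaled units in mm, 79.8 and 58.9 in Mm, 70.2 in the ago104 library, and 16.4 and 10.7 in B73. MIR396c and MIR164a supplied between 75.0% and 89.4% of the alignments in each library. The order of this pair differed: MIR164a was above MIR396c in both mm libraries, in both B73 libraries and in the ago104 library, where it held 723 alignments and MIR396c 637, whereas in the Mm libraries MIR396c was slightly above MIR164a in replicate 1 (64 and 62 alignments) and above it in replicate 2 (48 and 30). Next came MIR156e and MIR156f, with 99 and 96 alignments in the ago104 library and counting intervals that overlapped, then MIR171h with 49 and MIR398a with 38.

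The ago104 library, with its greater depth, gave intervals that were narrow for their level. MIR396c stood at 31.7 per 1000000 alignments (29.3 to 34.2) there and at 2.16 and 3.16 in B73. MIR164a stood at 36.0 (33.4 to 38.7) there and at 11.9 and 6.32 in B73. MIR156e was at 4.92, MIR156f at 4.78, MIR171h at 2.44 and MIR398a at 1.89. No test of this single library against a genotype was made. Its pooled ratios to B73, from 3.55 in MIR156e to 11.4 in MIR396c, carry counting error only. MIR156e, MIR156f, MIR171h and MIR398a reached the 20 alignments that chose them in the ago104 library alone, so that their excess there comes from the values used for the choice and is a description. In 3 members (MIR396c, MIR164a and MIR156f) the interval in the ago104 library lay above those of both B73 libraries, as it did in 9.57% of all 5872 annotated genes.

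Other short RNA genes of the chromosome were set beside the members, with no test between the lists. Between mm and B73, 27 of 111 tRNA genes tested rose and 2 fell, with a median log2 change of 0.94, and 30 of 82 snoRNA and snRNA genes rose and 2 fell, with a median of 1.27. The members' median was 1.37, with MIR171h included, which entered the fit through its level in Mm. Between Mm and B73, 10 tRNA genes rose and 0 fell, with a median of 0.43, and 1 snoRNA or snRNA gene rose and 4 fell, with a median of 0.20. The members' median there was 1.58. It includes MIR171h, which entered the fit through its level in Mm, so that this median describes the list and supports nothing. Between mm and Mm, the median was 0.45 over tRNA genes, 1.20 over snoRNA and snRNA genes and -0.39 over 4015 protein-coding genes, and the members lay on both sides of 0. Among the 20 other microRNA genes of the chromosome, 18 missed the mean of 1 scaled unit. MIR160f, of a family that represses AUXIN RESPONSE FACTOR genes, passed it. It held 7 and 31 alignments in mm, 13 and 11 in Mm, and 4 and 13 in B73, of which 16 bases was the commonest length in every library. It rose in mm against B73 by 2.02 on the log2 scale (standard error 0.47, adjusted p = 0.0308), close to the value of MIR164a. MIR171c, the other gene tested, had log2 changes of -0.21, 0.64 and 0.85 in mm against Mm, mm against B73 and Mm against B73, with no call.

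For each gene, the annotated gene of chromosome 2 whose log2 coverage over the 7 libraries was most like it was taken from 4052 genes with a mean of at least 5 scaled units. Pearson's r was 0.98 between MIR396c and LOC103646058, 0.99 between MIR164a and LOC100384804, 0.97 between MIR156e and LOC109944610, 0.98 between MIR156f and LOC103647892, 0.99 between MIR171h and LOC100191324, and 0.93 between MIR398a and LOC100274236. All 6 partners are protein-coding genes. As each r is the highest of 4052 over 7 libraries that share their scaling, it describes the pattern and nothing further.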

How the data were processed

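Small RNAs from AGO104 immunoprecipitates of ears (immature by the study's text, mature by a figure legend) were sequenced in 7 libraries. Per the study's methods the authors trimmed reads with Trimmomatic, aligned them with Bowtie (1.2.2 in the submitters' processing notes) with mismatches allowed, and computed coverage with bedtools. They deposited the signal as depth of coverage on chromosome 2, in whole numbers, not scaled to library size. Which of the study's alignments the tables hold is not stated in the sources used here. Positions beyond b1 are shifted by 7855 bp, so they do not follow the unchanged B73 chromosome. The 10 tables named by antibody and length class were not used.

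Gene bounds came from RefSeq, moved by 7855 bp beyond b1. The i-th start of an alignment was paired with the i-th end, which put at least 91.7% of alignments between 16 and 21 bases. Starts up to 5 bases apart from the commonest start formed 1 place. Coverage per gene was scaled to 1000000 units per library and fitted with limma 3.58.1 (R 4.3.3) on log2 with a pseudocount of 1, with a trend, 3 genotypes in one model and Benjamini-Hochberg adjustment. The values are depths, so no count model was used. Other steps used Python 3.11.15. Reading of alignments and fitting were tested on simulated data. All 6 listed genes are named. The members, lists and tests were chosen with earlier results of these data known.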

Additional observations from a re-analysis of the deposited data

Results flagged for a closer look

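The library labelled ago104 enters no comparison between genotypes. There, 3 of the 6 genes had alignments per 1000000 whose 95% Poisson interval lay above the intervals of both B73 libraries: MIR396c at 31.7, MIR164a at 36.0 and MIR156f at 4.78. In B73 the values were 2.16 and 3.16 for MIR396c, 11.9 and 6.32 for MIR164a, and 1.44 and 0.677 for MIR156f. For MIR396c the ago104 value lay below both Mm libraries (41.1 and 33.9), and for MIR164a between them (39.9 and 21.2). Over all 5872 annotated genes, 9.57% met the same condition. MIR156f reached the 20 alignments that chose it in this library alone, so that its excess there comes from the values used for the choice. The difference from B73 was not tested.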

How the results depend on the processing

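Over 15 log2 changes and 260 alternative values, 226 kept their direction and side of the threshold, 15 lost the threshold, 17 passed it newly and 2 turned. Both concern MIR156e in mm against Mm, at 0.068 with scaling by the median ratio over genes and 0.27 with scaling outside the top 1% of 10 kb bins. Those scalings moved the median log2 change of all genes in mm against Mm, -0.34, to -0.02 and 0.17, and the calls from 82 higher and 770 lower to 156 and 429, and 292 and 324. In mm against B73 they gave 306 and 438, and 416 and 314, in place of 255 and 566.

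Of all genes, 852 were called in mm against Mm, 821 in mm against B73 and 87 in Mm against B73. With only the 2 genotypes compared in the fit, these came to 1822, 300 and 0 (946 at an unadjusted p under 0.05 in limma). Leaving out 1 library gave 0 to 1820, 157 to 1642 and 0 to 804; in mm against Mm the count of 0 arose without either Mm replicate, with 1090 and 1389 genes at an unadjusted p under 0.05. For Mm against B73, no filter gave 39 calls and no trend 45. A replicate block gave 35 (adjusted p of MIR396c 0.0615). The replicate numbers did not pair the samples: the differences between replicates 1 and 2 correlated across genes at 0.01 between mm and Mm, -0.02 between mm and B73 and 0.08 between Mm and B73. By alignment starts per 1000000 alignments, the sum over the 6 genes was higher in every group. It was 81.7 in the ago104 library, in place of 70.2. As means of 2 libraries, it was 66.9 in mm in place of 61.0, 78.8 in Mm in place of 69.3, and 15.2 in B73 in place of 13.6. Isolated stretches could be used where each library of a group had at least 10 such alignments, which left MIR396c in mm (100% of 16 bases by both measures). Depth limits MIR156e, MIR156f, MIR171h and MIR398a, at 0 to 8 alignments in each mm, Mm and B73 library. Libraries of 1 group are separate biological replicates by the study's methods, and a lone sample of a group is taken to vary like the others.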
